A study of Mus musculus with 23 samples.

Results

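Oxidative phosphorylation subunits are the nuclear-encoded proteins that build the 5 enzyme complexes of the inner mitochondrial membrane. They were chosen by symbol: every row of the count table starting with Ndufa, Ndufb, Ndufc, Ndufs or Ndufv and a digit, Sdha to Sdhd, Uqcr, Cox4 to Cox8 or Atp5, with a mean of at least 1 CPM (a count scaled to library size) over all libraries. Of 84 symbols that matched, 81 passed, out of 24062 rows. Complex I had 36 members, complex II 4, complex III 8, complex IV 16 and complex V 17. Cox8c and Ndufs5 were listed at 0 in every library and Cox7b2 had 2 counts in all, so these 3 stayed out. Ndufs5 is a complex I subunit that cells generally use, and how the counting treated reads that map to several places is not given in the sources used here, so its 0 is not read as absent expression. The members just above the limit were Cox6b2 with a mean of 1.72 CPM and Cox4i2 with 4.24 CPM. By symbol alone the set also takes in Atp5sl, an assembly protein of complex I whose current symbol is Dmac2, Atp5s, a coupling factor, Cox7a2l, which joins complexes into supercomplexes, and Ndufa4 and Ndufa4l2, a family now placed with complex IV; 76 members remained without these. The subunits that mitochondrial DNA encodes were not analysed here.

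Complex I takes electrons from NADH and complex II from succinate, complex III passes them to cytochrome c and complex IV to oxygen. The proton gradient built on the way drives ATP synthase, complex V. Skeletal muscle is rich in mitochondria; several subunits of complexes IV and V exist as paralogs, some of them typical of heart and skeletal muscle.

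RNA came from gastrocnemius muscle and from fat (IAT in the labels) of mice aged 8 to 10 months on a mixed 129Sve/C57BL/6 background. The genotypes were wild type (WT), BubR1H/L1002P (HL1002P) and BubR1H/H (HH), mutants of BubR1, which Bub1b encodes; the labels call them progeroid MVA mutants. Whole tissue was used, and muscle and fat RNA were extracted with different kits, so tissue and kit cannot be told apart. There were 4 libraries in each group except HH muscle with 3, or 23 in all, with 22552184 to 58828571 counts each. The labels name no animals, so the tests measure the spread between samples. Bub1b itself was at 0.726 to 0.949 CPM in WT muscle, 0.181 to 0.273 in HL1002P and 0.325 to 0.519 in HH muscle; in fat the WT libraries had 7.09 to 11.6 CPM, HL1002P 6.11 to 22.2 and HH 5.96 to 14.2, so its level did not separate the fat groups. Summed skeletal muscle markers (10 genes) were at 11992 CPM in fat WT replicate 3, 11505 in fat HH replicate 1 and 4524 in fat HL1002P replicate 4, against 121 to 1276 in the other 9 fat libraries. Sex is not in the labels; Xist and Y-linked transcripts placed WT replicates 3 and 4, HL1002P replicate 4 and HH replicate 4 of the fat as female, and in muscle WT replicates 3 and 4, HL1002P replicates 3 and 4 and HH replicate 3. Summed fast fibre markers were at 129667 to 198793 CPM in muscle, and summed adipocyte markers at 12716 to 44458 CPM in fat. In bulk tissue, fewer cells of a type and less RNA per cell cannot be told apart.

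The first comparison, WT muscle against WT fat, asks where each subunit is expressed. Members took 2.81 to 3.40% of all counts in the muscle libraries and 1.02 to 1.78% in the fat libraries. On the scale of trimmed mean of M values (TMM), which centres the bulk of genes, 76 of 81 members were higher in muscle and 3 lower in edgeR's quasi-likelihood test with Benjamini-Hochberg adjustment at 0.05. Of all 16863 genes tested, 31.9% were higher and 41.6% lower. The median log2 fold change of the members was 2.13 and that of all genes -0.30. When libraries were scaled by their totals only, 69 members were higher and 6 lower, with a median of 0.98 against -1.47 for all genes (2123 higher and 11996 lower). The distance between members and all genes was thus nearly the same under both scalings, while the level of a single member moved by over 1 log2 unit. Median differences on the TMM scale were 2.15 for complex I, 2.23 for II, 2.19 for III, 1.82 for IV and 2.13 for V. Summed per complex with libraries scaled within each tissue only, complex I reached 9092 ± 654 CPM in WT muscle and 4582 ± 1016 in WT fat (SD, n = 4 each), complex II 2200 ± 91.1 and 1083 ± 175, and complex III 3537 ± 154 and 1621 ± 335. Complex IV reached 5112 ± 432 and 3237 ± 753, and complex V 12586 ± 332 and 6041 ± 1423. In none of the 5 did a WT fat library overlap a WT muscle library.

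Per kilobase of transcript, which allows genes to be compared, the catalytic beta subunit of ATP synthase, Atp5b, was first in both tissues, at 1810 ± 59.7 CPM per kb in WT muscle and 988 ± 283 in WT fat (SD, n = 4). In muscle, Cox6a2 with 1552 ± 249 and Cox8b with 1222 ± 92.7 CPM per kb came next, and the library values of Cox6a2 and Atp5b overlapped. In fat, Cox8a with 932 ± 318 and Cox6a1 with 804 ± 244 followed Atp5b. Cox6a1 lay below both others in every WT fat library, and the order of Atp5b and Cox8a was not the same in all of them. The order of these 3 was not tested. Median levels per complex ran in WT muscle from 258 CPM per kb for complex I through 295 for II, 531 for IV and 578 for III to 610 for V. In WT fat they ran from 136 for I through 167 for II, 229 for IV and 294 for III to 364 for V, the same order.

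Paralogs of complex IV and the c subunit genes of complex V departed from the general tissue difference. Cox6a2, the heart and muscle form of subunit VIa, had 904, 969, 1056 and 1292 CPM in the 4 WT muscle libraries and 16, 8.94, 102 and 7.38 in the 4 WT fat libraries. Its ubiquitous paralog Cox6a1 had 28.5, 36.1, 38 and 35 CPM in WT muscle and 501, 636, 326 and 372 in WT fat. The tissues did not overlap for either gene, in opposite directions, and the one high fat value of Cox6a2 belongs to WT replicate 3, the library with muscle markers. Cox6a2 was higher in muscle by 6.22 ± 1.29 on the log2 scale (SE, edgeR adjusted p = 0.00024) and Cox6a1 fell by 2.49 ± 0.22 (adjusted p = 6.23e-09). Cox6a2 made 96.8 ± 0.433% of the counts of the pair in WT muscle and 7.58 ± 10.9% in WT fat.

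Subunit VIII repeated this. Cox8b had 399.5, 460.1, 426 and 473 CPM in WT muscle and 30.6, 47.5, 80.4 and 36.9 in WT fat. Cox8a had 35.1, 44, 46.1 and 37.3 CPM in WT muscle and 548, 744, 356 and 401 in WT fat. Again neither gene overlapped between tissues. The log2 differences were 4.42 ± 0.48 for Cox8b (edgeR adjusted p = 9.07e-08) and -2.41 ± 0.22 for Cox8a (adjusted p = 6.91e-09), and Cox8b made 91.5 ± 1.04% of the pair in muscle and 9.53 ± 6.07% in fat. In subunit VIIa the exchange was partial: the muscle form Cox7a1 made 60.5 ± 2.15% of the pair in WT muscle and 7.02 ± 4.97% in WT fat, and Cox7a1 was higher in muscle by 5.45 ± 0.79 (adjusted p = 3.84e-06). Cox7a2, the general form, was higher by 1.01 ± 0.21 on the TMM scale (adjusted p = 0.00024) but at -0.13 ± 0.17 when libraries were scaled by their totals, so it has no direction that both scalings share.

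The other pairs did not exchange. Cox4i1 made 99.7 ± 0.0684% of the Cox4i pair in WT muscle and 98.9 ± 0.198% in WT fat, leaving Cox4i2, the form typical of lung, near 1% or under. Cox6b1 made 99.9 ± 0.0482% and 99.3 ± 0.485% of its pair; its testis paralog Cox6b2 was lower in muscle by 1.23 ± 0.37 on the log2 scale (edgeR adjusted p = 0.0062), at under 4 CPM in every WT library. Ndufa4l2 made 1.75 ± 0.318% of the Ndufa4 pair in WT muscle and 6.35 ± 1.78% in WT fat. Of the 3 genes for the same mature c subunit of ATP synthase, Atp5g1 rose most: it had 654, 670.4, 598 and 614 CPM in WT muscle and 76.2, 101, 98.2 and 65.5 in WT fat, with no overlap. The log2 difference was 4.15 ± 0.18 (edgeR adjusted p = 3.58e-13), against 1.96 ± 0.14 for Atp5g2 and 1.89 ± 0.23 for Atp5g3, and its share of the 3 genes was 37.2 ± 2.04% in muscle and 11.4 ± 2.76% in fat.

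**Figure D1:**
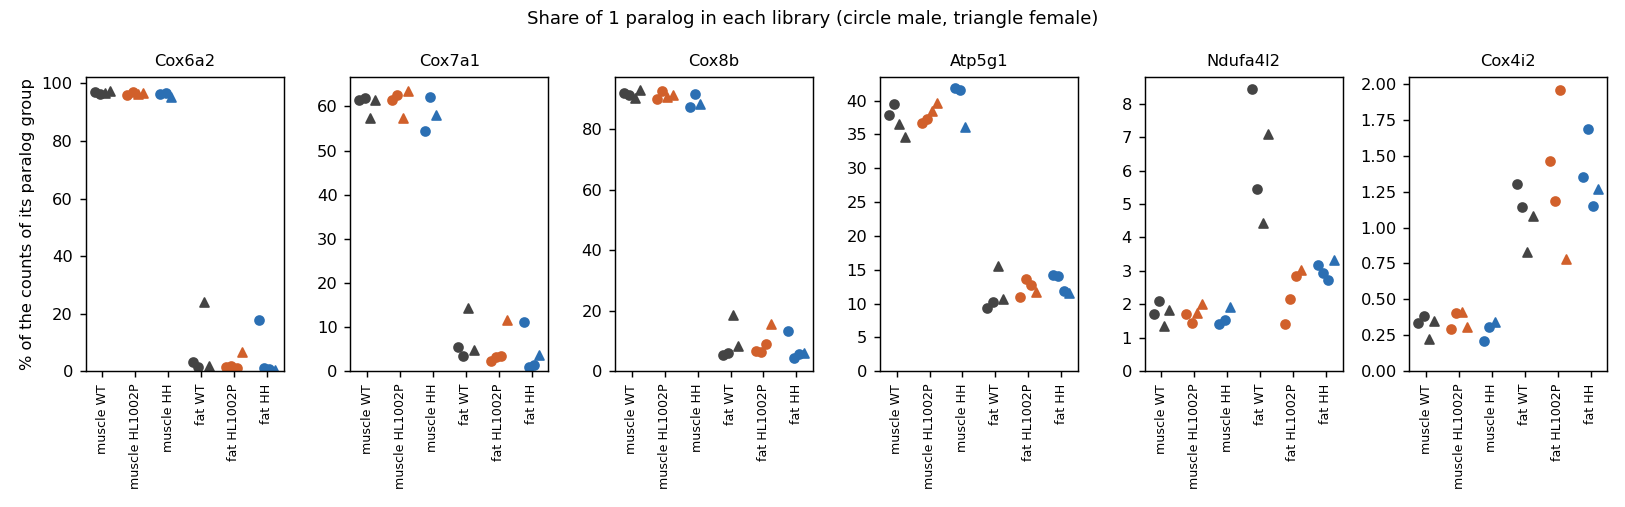
Share of 1 paralog in the counts of its group (percent, y axis) in each of the 23 libraries, by tissue and genotype; circles are males and triangles females. Cox6a2, Cox7a1 and Cox8b separate muscle from fat in every genotype, and the raised fat points are the 3 libraries with muscle markers.

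Of the core subunits, Cox5a of complex IV was higher in muscle by 3.26 ± 0.16 on the log2 scale (edgeR adjusted p = 1.58e-12), Ndufb5 of the complex I membrane arm by 3.04 ± 0.21 and Ndufs7, which carries an iron-sulfur cluster, by 2.85 ± 0.19. Sdhb, the iron-sulfur subunit of complex II, was higher by 2.69 ± 0.19, Uqcrc1, a core protein of complex III, by 2.93 ± 0.22, and Atp5a1, the alpha subunit of ATP synthase, by 2.68 ± 0.20. Cox4i2 at -0.16 ± 0.28 and Ndufa4l2 at 0.12 ± 0.30 did not pass. Both were among the 6 lower members when libraries were scaled by their totals, with Ndufv3 as the other addition.

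Upstream sequences are shown for the paralogs of complex IV with opposite tissue patterns and for Atp5g3, 1 of the few members with an estrogen-related receptor (ERR) motif. The RefSeq table used (GRCm38.p6) matched 67 of the 81 members; Cox6a2 and Ndufa4l2 were among the 14 others, so their upstream bases were not searched. The Atp5g3 bases precede the start given in that table, while the RefSeq gene record reaches further upstream, to position 73912464, so they lie within its span. Each line gives the 250 bases before the start, 5′ to 3′ on the strand of the gene; capitals mark a match to the NRF1 motif GCGCATGCG, the ERR motif TCAAGGTCA or the GABP motif CCGGAAG on either strand.
Cox6a1 (chr5:115348959-115349208, minus strand): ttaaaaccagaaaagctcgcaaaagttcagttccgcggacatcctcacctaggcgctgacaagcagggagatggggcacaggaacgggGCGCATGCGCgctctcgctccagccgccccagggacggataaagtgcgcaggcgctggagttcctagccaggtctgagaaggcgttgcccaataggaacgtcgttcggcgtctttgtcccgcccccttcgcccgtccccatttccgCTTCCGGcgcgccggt
Cox8a (chr19:7217617-7217866, minus strand): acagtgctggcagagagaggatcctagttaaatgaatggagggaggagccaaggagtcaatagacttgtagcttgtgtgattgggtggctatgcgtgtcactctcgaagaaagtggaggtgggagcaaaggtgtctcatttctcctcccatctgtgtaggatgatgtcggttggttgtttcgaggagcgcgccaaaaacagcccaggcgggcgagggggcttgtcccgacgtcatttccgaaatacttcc
Cox8b (chr7:140900447-140900696, minus strand): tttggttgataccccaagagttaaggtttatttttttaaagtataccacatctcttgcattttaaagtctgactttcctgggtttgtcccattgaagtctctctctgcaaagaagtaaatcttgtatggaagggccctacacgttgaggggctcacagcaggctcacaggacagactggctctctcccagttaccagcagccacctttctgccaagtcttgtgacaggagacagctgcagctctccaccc
Atp5g3 (chr2:73911327-73911576, minus strand): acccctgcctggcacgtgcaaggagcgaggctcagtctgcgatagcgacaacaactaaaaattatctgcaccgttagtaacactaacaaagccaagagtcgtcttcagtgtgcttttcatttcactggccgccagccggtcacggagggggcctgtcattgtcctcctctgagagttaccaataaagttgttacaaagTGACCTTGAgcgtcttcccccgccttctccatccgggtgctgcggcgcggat

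Motifs were counted on both strands over 300 bases, from 250 before to 50 after the start. NRF1 and GABP are activators known for nuclear genes of mitochondrial proteins. The NRF1 motif was in 8 of 67 members (11.9%), including Cox6a1, Atp5g2 and Uqcrc1, and in 1.95% of 27025 genes, or 2.61% of the protein-coding ones. The GABP motif was in 16 of 67 (23.9%), including Cox6a1, Cox8a, Sdhb and Sdhd, and in 9.93% of all genes (12.9% of coding genes). The Cox8a match does not lie wholly within the 250 bases shown, so it is not in capitals. The YY1 motif AAGATGGCG was in 8 of 67 (11.9%) and in 1.64% of all genes. The ERR motif was in Atp5g3 and Sdhd, or 2.99%, against 0.466% of all genes. The MEF2 motif CTAAAAATA, of a family of muscle activators, was in none of the 67 and in 0.588% of all genes, and the E-box CAGCTG was in 5 members (7.46%), Cox8b among them (left in lower case above), against 18.3% of all genes. These are matches of letters in a window and were set beside all genes as a description.

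In muscle, the comparisons of each mutant with WT ask whether the mutation changes the respiratory chain transcripts. No member passed in HL1002P against WT, where 0.117% of 14580 genes did (17 genes). No member passed in HH against WT either, where 0.377% did. The estimates leaned one way: 69 of 81 members were below 0 in HL1002P, with a median log2 fold change of -0.11, and 74 of 81 in HH, with a median of -0.15. Over all genes tested, 49.4% and 47.9% were below 0 and the medians were 0.0039 and 0.013. The median SE of a member was 0.12 and 0.13. At an unadjusted p under 0.05 there were 6 members in HL1002P and 11 in HH, or 7.41% and 13.6% of the members, against 10.5% and 16.6% of all genes, so the share of small p-values was not above the background. DESeq2 called 0 and 1 members. Both contrasts use the same WT libraries.

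By complex, the medians in HL1002P muscle were -0.09 for I, -0.22 for II, -0.13 for III, -0.08 for IV and -0.13 for V. In HH muscle they were -0.17, -0.28, -0.18, -0.11 and -0.14. All 4 members of complex II and all 8 of complex III were below 0 in both mutants, and in HH also all 17 of complex V.

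Complex II, succinate dehydrogenase, had the lowest median in both. Sdhd, a membrane anchor subunit, had 321, 329, 325 and 302 CPM in WT muscle, 288, 273, 257 and 239 in HL1002P and 223, 264 and 235 in HH. Every mutant library was below every WT library. The log2 fold change was -0.27 ± 0.09 in HL1002P (SE, edgeR adjusted p = 0.34) and -0.41 ± 0.10 in HH (adjusted p = 0.081); it passed in HH with DESeq2 (adjusted p = 0.0036). Sdhb had 545, 555, 550.3 and 613 CPM in WT muscle, 472, 450.1, 459.9 and 505 in HL1002P and 417, 542 and 421 in HH. HL1002P did not overlap WT, while HH replicate 2 lay near the WT libraries and the other two HH libraries below. The changes were -0.26 ± 0.10 and -0.30 ± 0.11 with edgeR adjusted p of 0.41 and 0.21. Sdha, the flavoprotein, was at -0.26 ± 0.12 in HH (adjusted p = 0.29). Summed, complex II had 2137 to 2335 CPM in the WT libraries, 1859 to 1979 in HL1002P and 1615 to 2126 in HH.

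In complex I, Ndufs1, the largest iron-sulfur subunit, had 368, 403, 402 and 394 CPM in WT, 333, 323, 349 and 328 in HL1002P and 285, 377 and 282 in HH muscle. HL1002P lay below WT without overlap; in HH, replicate 2 lay among the WT libraries. Its changes were -0.23 ± 0.10 (edgeR adjusted p = 0.46) and -0.32 ± 0.11 (adjusted p = 0.19). Ndufs8 at -0.28 ± 0.10 had the smallest p of complex I in HL1002P (adjusted p = 0.39). In complex III, Uqcrc2 was at -0.22 ± 0.09 in HL1002P (adjusted p = 0.43) and the Rieske protein Uqcrfs1 at -0.29 ± 0.11 in HH (adjusted p = 0.22). Complex V summed to 12149 to 12956 CPM in WT and 11184 to 11975 in HL1002P, again without overlap, and to 10468 to 13134 in HH.

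HH replicate 2 was the highest HH library in the sums of all 5 complexes, and above every WT library in complex V. It was also the muscle library lowest in slow fibre markers, with 1109 CPM over 9 genes, followed by WT replicate 1 with 1582; the other 9 had 6738 to 12843. Without these 2 libraries, chosen after seeing the data, the HH median was -0.27 with no member called, and the HL1002P median stayed at -0.11. Since HH replicate 2 was the highest HH library, a lower HH median can follow from leaving it out, and this fit is no separate evidence. Macrophage markers in muscle were positive in 11 of 11 genes in both mutants, with medians of 1.07 and 0.64 and none called; with their level as a covariate the member medians were -0.12 and -0.15. A split by sex was made after seeing the data. The member median in HL1002P muscle was then 0.03 in males and -0.23 in females, and in HH -0.07 and -0.29. HH females were 1 library, replicate 3. In males minus females, 11 and 6 of 81 members were below 0 for HL1002P and HH, against 7296 and 7243 of 14580 genes. For HL1002P, 0 members were called in either sex or in that difference. The sign counts come from members measured in the same few libraries, so they give no test of a difference between the sexes.

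HL1002P and HH muscle were compared directly: 0 of 81 members passed, against 0.0206% of all genes, with a median of 0.04. Leaving out 1 library in turn moved that median between -0.02 and 0.16. Replicate numbers paired these libraries, with correlations of 0.29 to 0.40 for same numbers, and the fit with a replicate block called 0 members too.

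**Figure D2:**
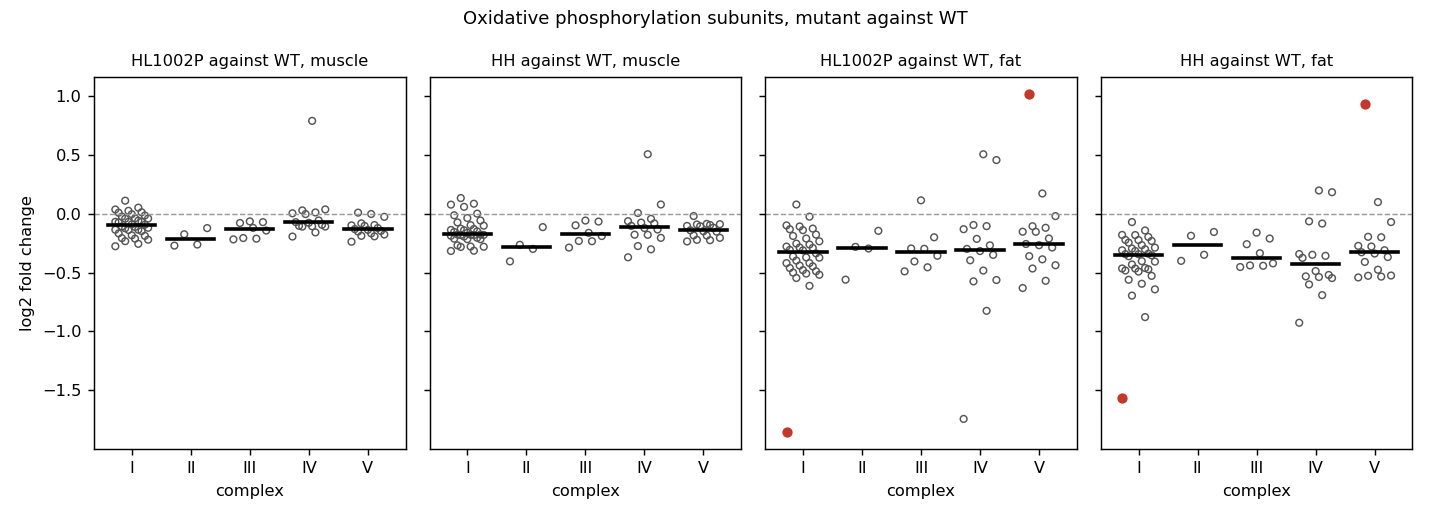
Log2 fold change (y axis) of each of the 81 members by complex (x axis) for both mutants against WT in muscle and fat; bars are medians per complex, open points did not pass and filled points passed at an adjusted p of 0.05. Nearly all points lie below 0, and the filled ones are Ndufa4l2 (low) and Atp5sl (high) in fat.

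In fat, 2 of 81 members passed in HL1002P against WT: Atp5sl was higher and Ndufa4l2 lower. Of all 16266 genes, 17.3% were higher and 14.5% lower. The same 2 members passed in HH against WT, where 12.3% of all genes were higher and 8.59% lower. So 1.23% of the members passed in each direction, well under the share of all genes, and none of the 76 core subunits passed in either. The estimates again leaned down: 75 and 77 of 81 members were below 0, with medians of -0.30 in HL1002P and -0.35 in HH, against 53.8% of all genes in each and medians of -0.07 and -0.06. Scaled by library totals only, the member medians were -0.12 and -0.18 and those of all genes 0.10 in each, so members lay below all genes under both scalings, by about as much. The median SE of a member was 0.23, larger than in muscle. By complex, the medians in HL1002P fat were -0.32 for I, -0.29 for II, -0.33 for III, -0.31 for IV and -0.26 for V, and in HH fat -0.35, -0.27, -0.38, -0.43 and -0.33. Between HL1002P and HH fat no difference passed: 0 of 81 members and 0% of all genes passed in edgeR, with 0 members and 535 genes at an unadjusted p under 0.05 and 21 genes called by DESeq2.

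Ndufa4l2, a hypoxia-inducible relative of Ndufa4, had 28.3, 23.9, 11.8 and 17.4 CPM in the WT fat libraries, 3.66, 5.11, 4.95 and 8.85 in HL1002P and 9.06, 3.94, 4.89 and 9.61 in HH. All 8 mutant libraries were below all 4 WT libraries. The log2 fold change was -1.85 ± 0.39 in HL1002P (SE, edgeR adjusted p = 0.0097) and -1.56 ± 0.38 in HH (adjusted p = 0.020). The call in HH was lost without WT replicate 1 or 2 or HH replicate 2 or 3 (adjusted p of 0.058, 0.053, 0.055 and 0.065), with the fold change between -1.35 and -1.45. Its exons overlap Shmt2 on the opposite strand and the library kit does not keep strand. Reads of both genes within the shared stretch therefore cannot be told apart, and the length of that stretch was not measured. Its share of the Ndufa4 pair was 6.35 ± 1.78% in WT, 2.36 ± 0.731% in HL1002P and 3.03 ± 0.263% in HH fat (SD, n = 4).

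Atp5sl had 22.1, 21.5, 33.6 and 29.7 CPM in WT fat, 52.7, 57.8, 61.4 and 44.2 in HL1002P and 50.3, 51.1, 63.6 and 38.8 in HH. All mutant libraries were above all WT libraries. It rose by 1.01 ± 0.19 in HL1002P (SE, edgeR adjusted p = 0.0079) and by 0.93 ± 0.19 in HH (adjusted p = 0.013). In muscle neither gene passed, at 9.30 ± 1.82, 9.06 ± 1.12 and 8.22 ± 1.51 CPM for Ndufa4l2 in WT, HL1002P and HH and 39.8 ± 4.05, 35.4 ± 0.962 and 37.4 ± 2.89 CPM for Atp5sl (SD, n = 4, 4 and 3).

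The mutant effect in muscle minus that in fat was tested over 80 members in 1 fit. For HL1002P, Ndufa4l2 was higher by 1.75 ± 0.42 (edgeR adjusted p = 0.014) and Atp5sl at -1.25 ± 0.23 (adjusted p = 0.0078), while 8.9% of 11870 genes were higher and 10.1% lower. For HH, Atp5sl was at -1.09 ± 0.24 (adjusted p = 0.018), with 3.35% of genes higher and 4.04% lower, and Ndufa4l2 at 1.32 ± 0.43 did not pass (adjusted p = 0.061). The medians over members were 0.15 and 0.17, so on the log2 scale the other members gave no difference between tissues that passed.

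**Figure D3:**
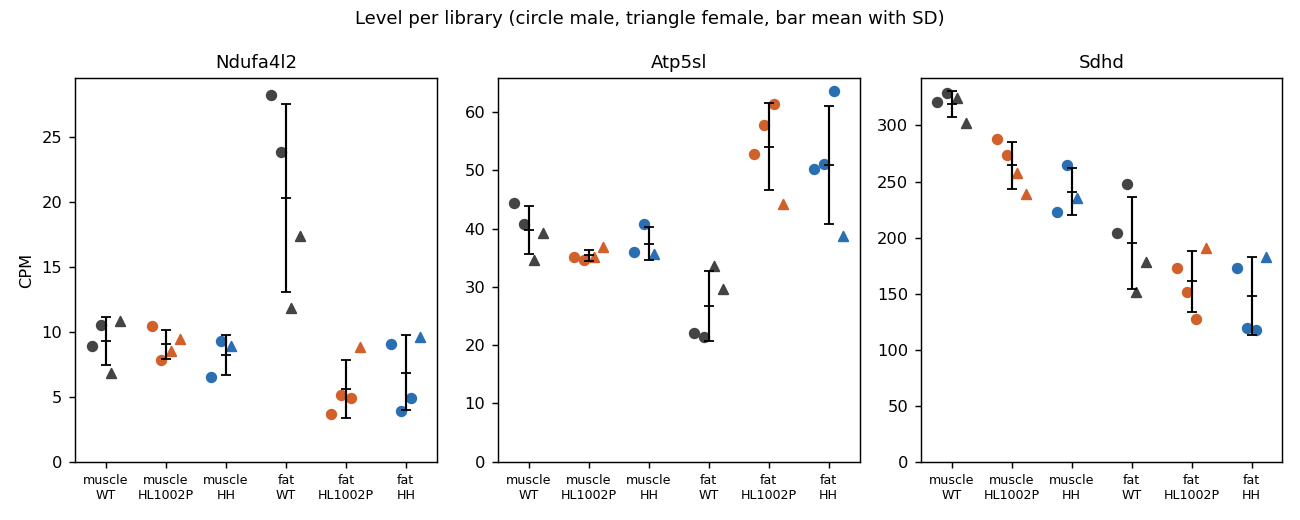
Level in CPM (y axis, from 0) of Ndufa4l2, Atp5sl and Sdhd in each library by group; circles are males, triangles females, and bars the mean with SD. In fat the mutant points of Ndufa4l2 lie below and those of Atp5sl above all WT points, and in muscle the mutant points of Sdhd lie below all WT points.

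Within WT fat the male libraries had higher member sums than the female ones. Adipocyte and epithelial markers, given below, split the same libraries, so sex cannot be told apart from them here. The members together summed to 17396 and 21424 CPM in the male WT libraries and to 13773 and 13664 in the female ones. Male HL1002P fat had 13697, 12727 and 10545 CPM and the female library 15437. Male HH fat had 15255, 9086 and 11507 CPM and the female library 15620. Male mutant libraries were thus all below the male WT libraries, and the female mutant libraries above the female WT libraries. The same held for the sum of each of the 5 complexes.

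A fit with a coefficient for each genotype and sex, chosen after these values were seen, gave the effects within each sex. In males, HL1002P against WT had 31 members lower and 2 higher, with a median of -0.61, where 24.1% of all genes were lower and 25.3% higher. HH against WT in males had 37 lower and 2 higher, with a median of -0.67, where 19.5% of genes were lower and 21.7% higher. Since the split was made after the member sums had been seen, these counts describe the same libraries again and are no separate evidence. In females, with 1 library of each mutant, 0 members and 0% of all genes passed in either mutant, and the medians were 0.20 and 0.19; edgeR gave 1 and 0 members and 444 and 2049 genes at an unadjusted p under 0.05. The difference of males minus females called 0 members in either mutant, with 0.0984% of genes called for HL1002P and 0.0123% for HH. Its median was -0.78 and -0.85 over the members, against 0.06 and 0.12 over all genes. The smallest adjusted p of a member was 0.095 and 0.11, both for Atp5sl, and with 1 female library per mutant, that of HL1002P being 1 of the 3 with muscle markers, this contrast says nothing either way about a difference between the sexes.

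By complex in males, in HL1002P 15 of 36 members of complex I were lower, 2 of 4 of complex II, 5 of 8 of complex III, 4 of 16 of complex IV and 5 of 17 of complex V. In HH the counts were 19, 2, 4, 6 and 6. Complexes IV and V in HL1002P thus lay near the 24.1% of all genes that were lower. Atp5b had 2168, 2515, 1360 and 1527 CPM in WT fat, 1120, 1201, 1016 and 1553 in HL1002P and 1585, 894, 1074 and 1697 in HH. WT replicates 1 and 2, the male ones, stood above all others. In males it fell by 1.08 ± 0.25 in HL1002P (SE, edgeR adjusted p = 0.0090) and by 0.98 ± 0.25 in HH (adjusted p = 0.016). Cox6a1, the main VIa form of fat, fell by 1.04 ± 0.23 (adjusted p = 0.0068) and 0.96 ± 0.23 (adjusted p = 0.012). Ndufb6 of complex I was at -1.13 ± 0.29 and -1.17 ± 0.29, Sdhc of complex II at -1.0 ± 0.22 and -0.75 ± 0.22, and Uqcrc1 of complex III at -0.91 ± 0.21 and -0.73 ± 0.21, all passing. The 2 higher members were Atp5sl and Cox6b2, the latter at 1.18 to 4.27 CPM in fat. Of the lower members named here, none passed against WT in the fit of all fat libraries. The split was made after the member sums had been seen, with WT replicates 1 and 2 highest. The p-values within males are therefore no separate evidence.

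**Figure D4:**
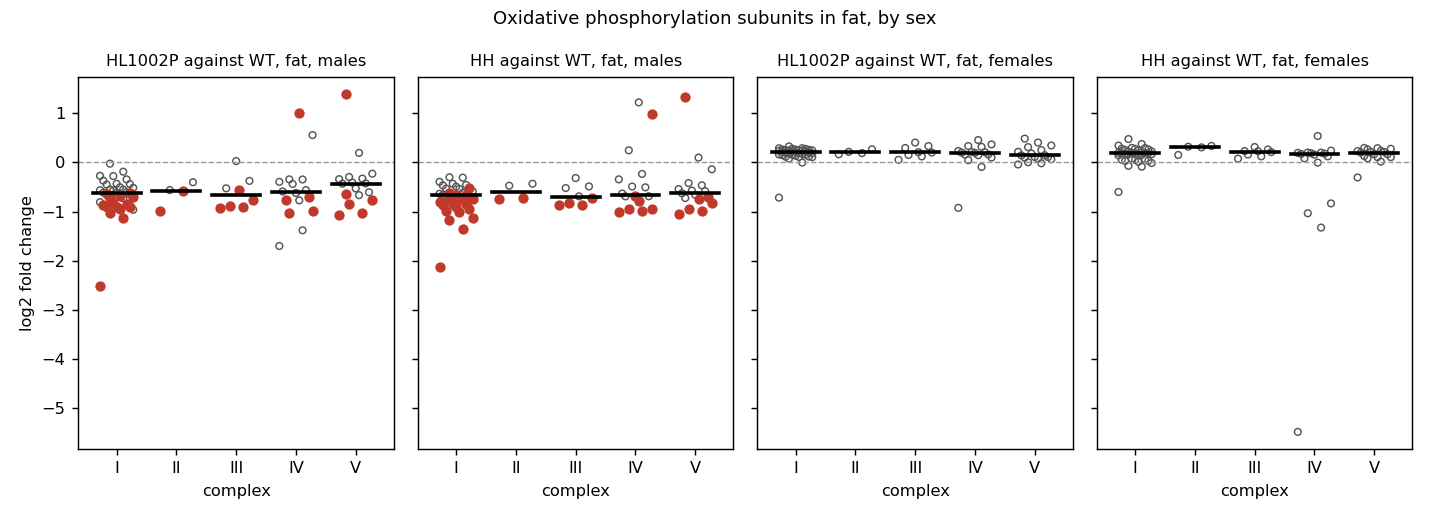
Log2 fold change (y axis) of each member by complex (x axis) against WT in fat, within males and within females; bars are medians per complex, filled points passed at an adjusted p of 0.05. Medians lie near -0.6 in males and near 0.2 in females, where each mutant has 1 library.

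Other cell types moved with these values. Summed adipocyte markers (12 genes) were at 42073 and 44458 CPM in the male WT libraries and 21995 and 23454 in the female ones, at 12716 to 23768 in HL1002P and 14775 to 33149 in HH. The 2 libraries with the highest adipocyte sums were the 2 with the highest member sums. The adipocyte genes had median log2 fold changes of -1.07 and -0.71, with 6 of 12 lower in HL1002P and 1 of 12 past the test in HH. With adipocyte level as a covariate the member medians were 0.21 and -0.01, and the genes called over the whole table went from 5167 to 1 in HL1002P and from 3391 to 732 in HH. B and T lymphocyte markers (16 genes) summed to 98.1 to 786 CPM in WT fat, 1569 to 4074 in HL1002P and 1898 to 3740 in HH; 16 and 13 of the 16 were higher. With lymphocyte level as a covariate no member and no gene was called, and the medians were -0.08 and -0.18. Every mutant library lay above every WT library in lymphocyte level, so this fit cannot tell that level apart from genotype. Fibroblast markers (7 genes) summed to 4288 to 10476 CPM in WT fat and 2059 to 5219 in the mutants. Epithelial markers (6 genes) were at 1589 and 1508 CPM in the female WT libraries and at 2.08 and 3.10 in the male ones; in the mutants they were highest in HL1002P replicate 4 with 994, HH replicate 2 with 676 and HH replicate 4 with 441. Endothelial markers (7 genes) summed to 929 to 1331 CPM in WT fat, 589 to 850 in HL1002P and 749 to 930 in HH, with 5 and 3 of 7 lower, Cdh5, Tek and Emcn in both. Macrophage markers (11 genes) summed to 1707 to 2091 CPM in WT fat, 1544 to 3551 in HL1002P and 1893 to 4086 in HH, with 1 and 0 of 11 higher. The part of fibroblast, epithelial, endothelial and macrophage content in these results was not tested.

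The muscle markers in 3 fat libraries touched the muscle paralogs most. In fat, Cox6a2 had 3.89, 4.98, 2.70 and 28.8 CPM in HL1002P and 82.2, 2.66, 2.53 and 1.22 in HH, and the high values are those of the libraries with muscle markers. Without these 3 libraries, 14 members were lower and 2 higher in HL1002P, where 22.7% of 16176 genes were lower and 22.5% higher, and 6 lower and 1 higher in HH, where 16.7% were lower and 17.4% higher. The medians were then -0.48 and -0.53. Among those lower in both were Ndufa4l2, at -2.35 ± 0.36 and -1.92 ± 0.35, Ndufb6, Cox6a1 and Cox6a2. Cox8b was lower in HH. Some muscle transcripts remained in the fat libraries kept. Skeletal muscle markers summed to 1276, 292 and 628 CPM in the WT libraries kept, and to 121 to 381 in the mutant ones. The part of these transcripts in the lower values of the muscle paralogs Cox6a2 and Cox8b was not tested. The 3 libraries left out were chosen after seeing the data. Members summed to 15437 CPM in HL1002P replicate 4, the highest of its group, to 15255 in HH replicate 1 and to 13773 in WT replicate 3. HL1002P replicate 4 was also the only female HL1002P fat library. Lower medians can follow from leaving these libraries out, so this fit is no separate evidence.

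**Figure D5:**
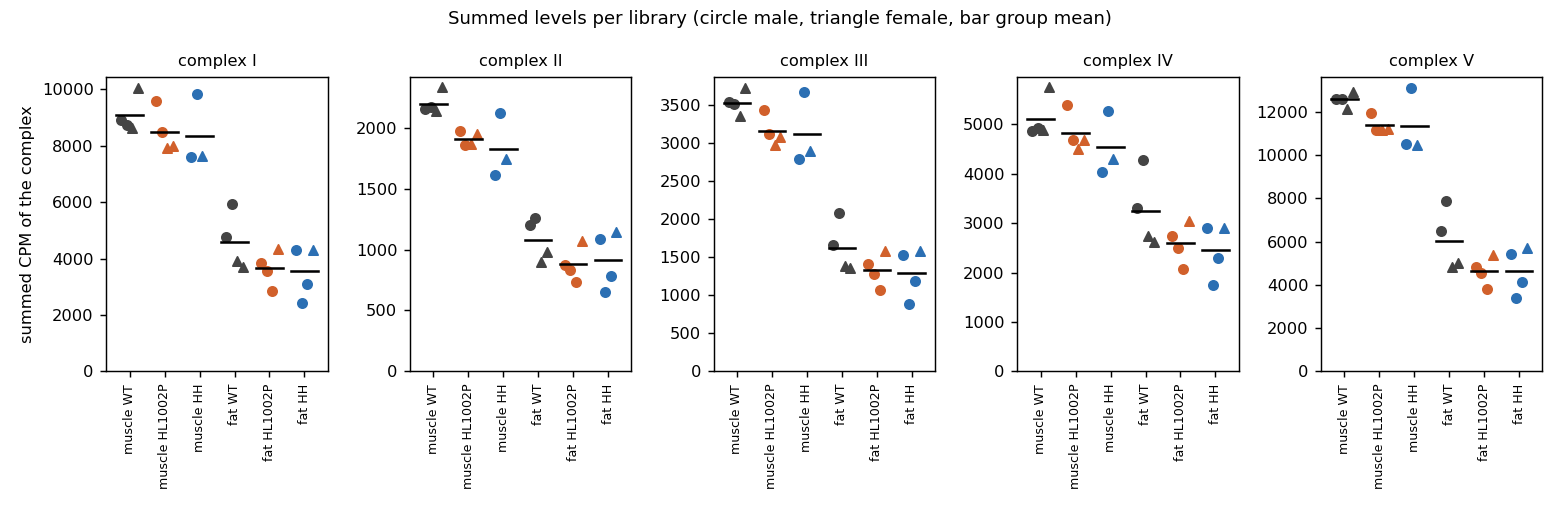
Summed CPM of the members of each complex (y axis, from 0) in each library by tissue and genotype; circles are males, triangles females, bars group means. Muscle lies above fat in every complex, except that in complex IV the highest WT fat library (4277) is above the lowest HH muscle library (4047), and in fat the 2 male WT libraries are highest in every complex.

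Shares of the paralogs were compared between genotypes as values, with no test. Cox6a2 made 96.8 ± 0.433, 96.5 ± 0.420 and 96.1 ± 0.838% of its pair in WT, HL1002P and HH muscle, and Cox8b 91.5 ± 1.04, 91.1 ± 1.06 and 89.0 ± 2.30%. In fat, Atp5g2 made 29.5 ± 6.84% of the c subunit counts in WT, 39.0 ± 2.95% in HL1002P and 37.5 ± 4.55% in HH, and Atp5g3 59.1 ± 9.37, 48.8 ± 3.64 and 49.6 ± 4.73% (SD). The ranges of the groups overlapped for both. In muscle, Atp5g3 made 41.6 to 42.6% in WT, 37.6 to 40.3% in HL1002P and 37 to 40.7% in HH, with no mutant library reaching WT.

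Genes that work beside the subunits were followed in lists. Of 10 subunits and carriers outside the symbol rule, Etfdh, which feeds electrons from fat oxidation into the chain, was the only one past the test in fat. It fell by 0.98 ± 0.29 in HL1002P (SE, edgeR adjusted p = 0.026) and by 1.01 ± 0.29 in HH (adjusted p = 0.032). Of 39 assembly factors tested in fat, 3 were lower in HL1002P and 4 in HH, where 14.5% and 8.59% of all genes were lower, so the counts were below or near the background; Acad9, a complex I assembly factor, at -0.68 ± 0.18 and -0.69 ± 0.18 was lower in both. In muscle 1 of 39 passed in each mutant, Ndufaf1, also a complex I assembly factor. It had 36.5, 33.4, 38.4 and 39 CPM in WT muscle and 22 to 25 in the 7 mutant libraries, without overlap. It fell by 0.65 ± 0.08 in HL1002P (edgeR adjusted p = 0.014) and by 0.71 ± 0.09 in HH (adjusted p = 0.0082). Ndufaf1 lies 1.01 Mb from Bub1b on chromosome 2 in RefSeq GRCm38.p6, while the nearest of the 6 members on that chromosome lies 27.7 Mb away.

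Of 17 regulators of mitochondrial biogenesis, 3 were higher in HL1002P fat, a share near the 17.3% of all genes. Tfam, which maintains and transcribes mitochondrial DNA, had 31.8 to 41.2 CPM in WT fat and 44.6 to 70.0 in HL1002P, without overlap, and rose by 0.69 ± 0.15 (edgeR adjusted p = 0.010); Nrf1 rose by 0.52 ± 0.16 (adjusted p = 0.028) and Gabpb1 by 0.53 ± 0.16 (adjusted p = 0.028). In HH fat Nrf1 was higher by 0.49 ± 0.16 (adjusted p = 0.045) and Esrrg lower by 0.89 ± 0.28 (adjusted p = 0.047). The coactivator Ppargc1a did not pass, at -0.13 ± 0.34 and -0.51 ± 0.34. Of 16 citric acid cycle genes 1 was lower in HL1002P fat, Ogdh at -0.62 ± 0.18 (adjusted p = 0.028), and of 77 mitochondrial ribosomal genes 1 in each mutant, Mrps6 at -1.34 ± 0.47 and -1.81 ± 0.48. In muscle no gene of these 3 lists passed in either mutant. Between WT tissues 16 of 16 citric acid cycle genes and 72 of 77 ribosomal genes were higher in muscle on the TMM scale, where 31.9% of all genes were, with medians of 2.06 and 1.18. Scaled by library totals, 15 of 16 citric acid cycle genes were higher with a median of 0.91, whereas 25 ribosomal genes were higher and 20 lower with a median of 0.02, so the ribosomal list has no direction that both scalings share.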

How the data were processed

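RNA of 23 libraries was prepared with TruSeq RNA Library Prep Kit v2, per the labels' protocols. The authors deposited raw counts per gene. Per the submitters' processing notes the tools were TopHat2 2.0.14, Bowtie2 2.2.6 and featureCounts 1.4.6 with build mm10; annotation, strand setting and multi-mapping rule are not given in the sources used here. Reads without molecular identifiers are not independent molecules.

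Differences were fitted with edgeR 4.0.16 under R 4.3.3 (TMM, filterByExpr, quasi-likelihood F test, all libraries of a tissue, Benjamini-Hochberg over all genes, 0.05). Levels are CPM on TMM-scaled library sizes per tissue. WT tissues, and mutant effects in muscle minus fat, were compared in 1 fit of all 23 libraries, the latter over genes of at least 1 CPM in each tissue. DESeq2 1.42.0, limma 3.58.1, other scalings, filters, covariates, a replicate block and leaving out libraries were alternatives. The tests were checked on simulated counts. Lengths are median coding transcripts of GENCODE M21 basic, and the exons of 17 members overlap another gene of the table. Members, lists and tests were chosen with earlier results of these data known. Named members were those past the test with the largest change per complex (up to 3 each way), otherwise the smallest p, plus paralogs, fixed core subunits and, per other list, up to 3 by p; the male and sex-split members were named after their values were seen.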

Additional observations from a re-analysis of the deposited data

Results flagged for a closer look

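The mutant effects on Ndufa4l2 and Atp5sl differed between tissues by the test of the difference. Ndufa4l2 in HL1002P differed by 1.75 (log2, muscle minus fat, edgeR adjusted p = 0.014), and Atp5sl by -1.25 in HL1002P (adjusted p = 0.0078) and -1.09 in HH (adjusted p = 0.018).

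In groups of 4, some libraries stood apart from their 3 companions; 8 of 80 sets of values did, where chance gives about 1 in 20. In fat, the share of Cox6a2 in its pair was 23.9% in WT replicate 3, 6.72% in HL1002P replicate 4 and 17.8% in HH replicate 1, the libraries with muscle markers. HL1002P replicate 4 also had the lowest shares of Cox7a2, 88.3%, and of Atp5g2, 34.6%. In muscle, complex IV summed to 5759 CPM in WT replicate 4, complex V to 11975 CPM in HL1002P replicate 1, and Cox7a2 made 42.7% of its pair in WT replicate 3, each the highest of its group.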

How the results depend on the processing

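The counts of members called were recomputed under 123 alternatives beside leaving out single libraries. Of these, 100 stayed within 1.5 times, which includes counts of 0 under both settings. No named member that passed under either setting changed sign, but some member medians did. In HL1002P fat the median went from -0.30 to 0.21 with an adipocyte covariate and to 0.20 in females only. In HH fat it went from -0.35 to 0.18 in females only. In HL1002P muscle against WT it went from -0.11 to 0.019 in males only. Between HL1002P and HH muscle it went from 0.04 to -0.02 with libraries scaled by their totals. In fat, members called in HL1002P and HH against WT (2 and 2) became 1 and 1 among members of at least 10 CPM, 0 and 0 among core subunits, 5 and 4 with DESeq2, 0 and 0 with a lymphocyte covariate, 0 in HL1002P with an adipocyte covariate, 1 in HH with a skeletal muscle covariate, 16 and 7 without the fat libraries rich in muscle transcripts, 27 and 29 in males only and 0 and 0 in females only; the adipocyte and skeletal muscle covariates, the library choices and the sexes were chosen after seeing the data. The males only fit used the male libraries alone. The earlier fit with a coefficient for each genotype and sex called 31 lower and 2 higher in HL1002P males. In HH males that fit called 37 lower and 2 higher. In muscle, HH against WT gave 1 with DESeq2. For the effect in muscle minus fat, HL1002P (2) gave 1 at 10 CPM, 0 among core subunits and 5 without the muscle-rich libraries, and HH (1) gave 0 among core subunits, 2 with DESeq2 and 3 without those libraries. Leaving out 1 library gave 2 to 5 in HL1002P fat (5 without HL1002P replicate 4), 1 to 4 in HH fat (4 without HH replicate 1), 0 to 1 in HH muscle (1 without HH replicate 2), and for the effects between tissues 2 to 3 in HL1002P and 0 to 3 in HH (0 without muscle HH replicate 1, 3 without fat HH replicate 1). Apart from sets with fewer members or libraries, the cause was not tested. Lymphocyte level was higher in every mutant fat library than in every WT one, so its covariate cannot be told apart from genotype. Over all genes, DESeq2 called 179 against 17 in HL1002P muscle and 628 against 55 in HH muscle, where the replicate block gave 203, a sex covariate 225 and a slow fibre covariate 155; in fat, HL1002P (5167) and HH (3391) gave 1 and 732 with an adipocyte covariate, 3773 and 968 with a skeletal muscle covariate and 0 and 0 with a lymphocyte covariate. The fit with a replicate block gave the same member counts as without it in all 6 comparisons, 0 in muscle and 2 and 2 in fat; same-numbered libraries were paired by their correlations only in HL1002P against HH muscle.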
